A study of Mus musculus with 4 samples.

Results

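Cytochrome P450 genes were examined in the mouse cell line HT-22, which derives from hippocampal neurons and was used at passages 21 to 24, in 2 libraries from cells overexpressing Nsmce1 and 2 libraries from wild type cells. The series text calls the Nsmce1 construct inducible and the controls uninduced, while the labels call them wild type. These sources give neither the promoter of the transgene nor whether the overexpressing cells were a single clone. Each gene's RNA-seq value in a library was a normalised read count, deposited after adding 1 and taking log2. The genes were chosen by symbol alone, as Cyp followed by a family number, a subfamily letter, a gene number and at most 1 further letter, which takes in 31 of the 25050 genes of the table. Cyp51, the sterol demethylase, Cyp2ab1 and the P450 pseudogenes fall outside that pattern.

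P450 enzymes are haem proteins that insert 1 atom of oxygen into steroids, sterols, fatty acids, vitamins and foreign chemicals. Most sit in the endoplasmic reticulum and draw electrons from P450 oxidoreductase, while a few are mitochondrial and draw them from ferredoxin. In brain the family is known for cholesterol turnover, for local breakdown of retinoic acid and for hydroxylated and epoxidised products of arachidonic acid, whereas many drug-metabolising members are chiefly liver and gut enzymes.

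A minimum mean of 10 normalised reads over the 4 libraries was met by 20 of the 31 genes, and these were tested among 15540 genes of the whole table. With Nsmce1 overexpression 1 of the 20 fell and 0 rose (limma, Benjamini-Hochberg adjusted p under 0.05), against 0.193% of all genes tested, 0.0901% lower and 0.103% higher. The gene that fell was Cyp3a41a. Cyp2b13 lay nearly as far below wild type and did not pass. The other 18 tested genes had log2 fold changes between -0.99 and 0.65. Of the 20, 10 lay above and 10 below 0, with a median of -0.02, beside 51.3% above 0 and a median of 0.005 over all genes tested. RNA came from whole cultures, so fewer cells expressing a gene and less RNA per cell cannot be told apart.

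The promoters of 3 genes are shown because 2 of them, Cyp3a41a and Cyp2b13, had by far the lowest values relative to wild type, and the third, Cyp1b1, carried the most reads. They are RefSeq sequences of the build GRCm38.p6, 250 bases before to 50 after the annotated start, and were found by symbol for 23 of the 31 genes. Capitals mark matches, on either strand, to the dioxin (xenobiotic) response element core GCGTG, the TATA box letters TATAAA or the nuclear receptor half-site AGGTCA, and no matches overlap in these 3 windows.
Cyp3a41a, chr5:145720087-145720386, minus strand: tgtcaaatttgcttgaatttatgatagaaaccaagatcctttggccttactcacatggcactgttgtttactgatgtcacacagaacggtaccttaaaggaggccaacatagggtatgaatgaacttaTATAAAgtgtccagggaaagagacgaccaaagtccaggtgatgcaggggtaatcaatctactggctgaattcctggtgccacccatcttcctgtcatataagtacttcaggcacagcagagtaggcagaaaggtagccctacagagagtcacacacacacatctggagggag
Cyp2b13, chr7:26061245-26061544, plus strand: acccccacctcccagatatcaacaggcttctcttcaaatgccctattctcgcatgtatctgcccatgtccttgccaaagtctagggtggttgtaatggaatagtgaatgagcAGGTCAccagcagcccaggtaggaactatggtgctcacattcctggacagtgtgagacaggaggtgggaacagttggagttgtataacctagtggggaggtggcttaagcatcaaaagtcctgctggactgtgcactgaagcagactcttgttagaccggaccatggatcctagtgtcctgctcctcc
Cyp1b1, chr17:79715012-79715311, minus strand: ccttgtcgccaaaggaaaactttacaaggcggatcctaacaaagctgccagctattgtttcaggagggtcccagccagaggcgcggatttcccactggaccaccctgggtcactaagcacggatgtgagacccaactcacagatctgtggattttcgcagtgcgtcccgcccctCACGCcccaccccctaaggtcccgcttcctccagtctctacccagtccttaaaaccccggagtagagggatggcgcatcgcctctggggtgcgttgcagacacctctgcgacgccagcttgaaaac
The Cyp3a41a window held TATAAA on the gene's strand, with its first base 122 bases before the start, the Cyp2b13 window AGGTCA on the gene's strand 138 bases before it, and the Cyp1b1 window GCGTG on the opposite strand 76 bases before it. Of all 32851 promoters of this length in the table, 32.4% held GCGTG, 13.6% TATAAA and 16.3% AGGTCA, and among the 23 P450 promoters 7, 6 and 4 did. A match describes the letters of the window and is no evidence of binding.

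The genes of the table together held 32516117 and 44602989 reads in overexpressing and 25787452 and 31010351 in wild type libraries, recovered as whole numbers from the deposited values. Nsmce1 itself stood at 17851 and 16525 normalised reads in the overexpressing libraries and at 1108 and 1206 in the wild type libraries (log2 fold change 3.89, limma adjusted p = 9.06e-05). Among all genes tested, 30 passed, and the number ranged from 2 without wild type replicate 1 and 9 without wild type replicate 2 to 51 without overexpression replicate 1 and 75 without overexpression replicate 2. The markers of neurons were few: Rbfox3, Map2, Snap25, Nefl and Gad1 were not among the genes analysed here. The 7 other markers of that list summed to 1536 and 1902 normalised reads in overexpressing and 1932 and 1706 in wild type libraries. Most of that sum was Syn1 (1024 and 1219 in overexpressing, 1186 and 1087 in wild type) and Tubb3 (446 and 611, 622 and 574). Camk2a had 40 and 51.1 in overexpressing and 108 and 30.5 in wild type libraries. Syp, Grin1, Gria1 and Slc17a7 had at most 17 normalised reads in any library. The 7 fibroblast markers summed to 449841 and 389754 in overexpressing and 477054 and 412235 in wild type libraries, with Col1a2 the highest. Of the 7, 2 lay above and 5 below 0. Col3a1 had 64349 and 52554 in overexpressing and 81869 and 68553 in wild type libraries (log2 fold change -0.37, limma adjusted p = 0.560). Of 7 hepatocyte markers only Apob and Serpina1a were among the genes analysed, and the list summed to 122 and 137 in overexpressing and 80.5 and 87.4 in wild type libraries. The 2 tested astrocyte markers went opposite ways. Slc1a3, a glutamate transporter, had 4537 and 4245 normalised reads in overexpressing and 3302 and 2956 in wild type libraries (log2 fold change 0.49, limma adjusted p = 0.181) and held nearly all reads of that list, which summed to 4560 and 4264 in overexpressing and 3368 and 3021 in wild type libraries. Aldh1l1, a folate enzyme, had 14 and 12.4 in overexpressing and 57.8 and 65.3 in wild type libraries (log2 fold change -2.14, limma adjusted p = 0.118). The summed reads of 6 microglia and leukocyte markers were 1655 and 1542 in overexpressing and 2250 and 1900 in wild type libraries. Tmem119 alone held nearly all of them, with 1587 and 1494 in overexpressing and 2184 and 1830 in wild type libraries. Aif1 had 65 and 40.1 in overexpressing and 46.5 and 67.4 in wild type libraries. Ptprc, Itgam, Csf1r and Cx3cr1 had at most 7.54 normalised reads in any library. Endothelial markers summed to 66 and 43.8 in overexpressing and 39.0 and 69.5 in wild type libraries, and steroidogenic cell markers to 74 and 66.4 in overexpressing and 86.8 and 85.3 in wild type libraries. Of the 20 markers tested in all these lists, 0 passed (limma adjusted p under 0.05), beside 0.193% of all genes tested, and 4 had an unadjusted limma p under 0.05, beside 7.92% of all genes tested. The part of these markers in the results below was not tested.

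The 31 genes together held between 0.0408% and 0.0490% of a library's reads in the genes of the table. Their summed normalised reads were 14788 and 13300 in overexpressing libraries and 15880 and 14736 in wild type libraries. Cyp1b1 made up 46.4% of that sum in both overexpressing libraries and 49.9% and 47.1% of it in the wild type libraries. The mean over libraries reached 100 normalised reads for 14 of the 31 genes, and 11 were below the minimum for testing.

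**Figure D1:**
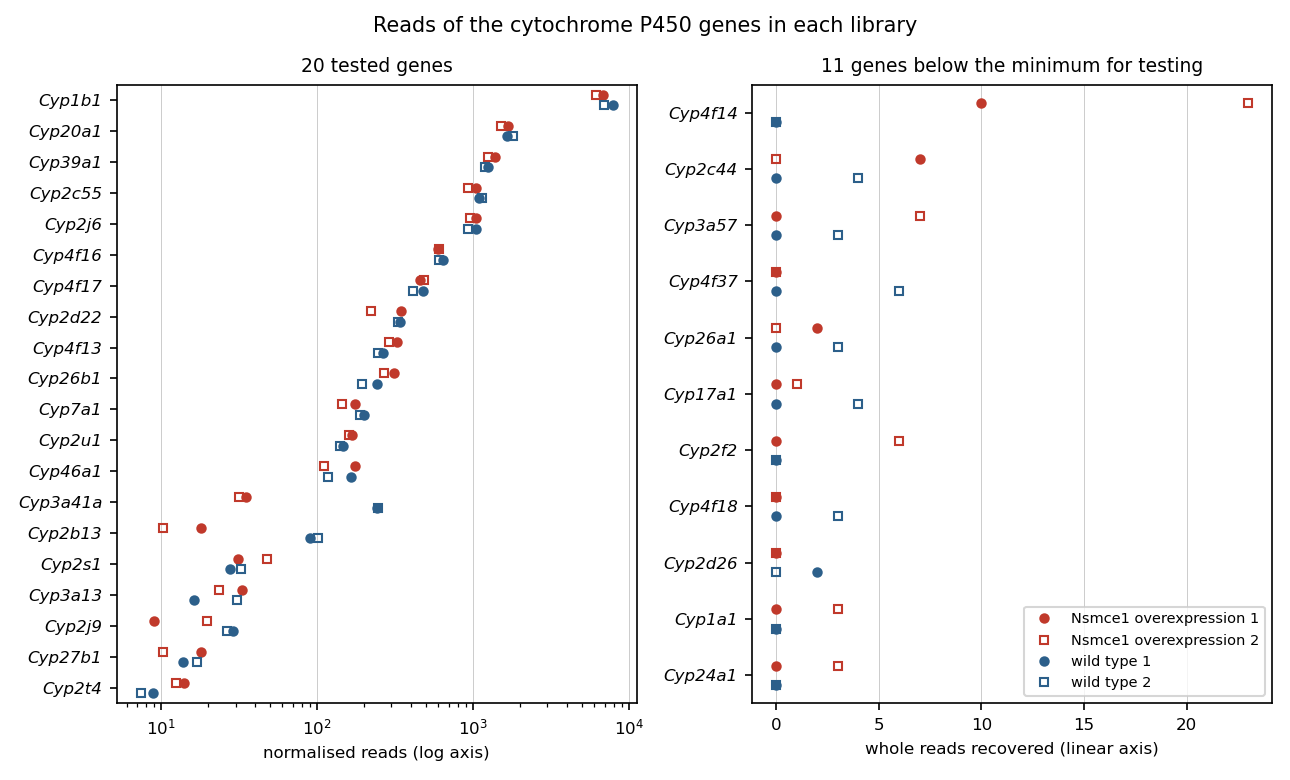
Reads of the 31 P450 genes in each library. Left, normalised reads of the 20 tested genes on a log axis, ordered by mean; right, whole reads of the 11 genes below the minimum on a linear axis. Overexpression (red) is drawn above wild type (blue) in each row, and filled and open points are replicates 1 and 2. The red and blue points lie close together in most rows of the left panel and far apart for Cyp3a41a and Cyp2b13.

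To compare levels between genes, normalised reads were divided by the length of the gene's exons. On this per-kilobase scale the order over all libraries began with Cyp1b1, Cyp20a1, Cyp2c55, Cyp39a1, Cyp2j6, Cyp4f16 and Cyp4f17, and in every library each of these 7 lay below the lowest value of the gene before it. Cyp1b1 had a level of 1116 ± 83.4 normalised reads per kilobase in overexpressing and 1272 ± 119 in wild type cells (SD, n = 2 in each group). Cyp20a1 had a level of 700.2 ± 54.1 in overexpressing and 758 ± 52.4 in wild type cells on the same scale. Below the 7 leading genes the ranges of neighbours in the order of the overexpressing means overlapped, except between Cyp7a1 and Cyp2u1 and between Cyp3a41a and Cyp3a13. Cyp3a41a had a level of 16.1 ± 1.24 per kilobase in overexpressing cells, between Cyp2u1 and Cyp3a13, against 119 ± 0.490 in wild type cells, between Cyp4f17 and Cyp2d22. Cyp2b13 had a level of 7.53 ± 2.93 per kilobase in overexpressing cells, between Cyp2s1 and Cyp27b1, against 51.1 ± 3.98 in wild type cells, between Cyp4f13 and Cyp7a1.

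**Figure D2:**
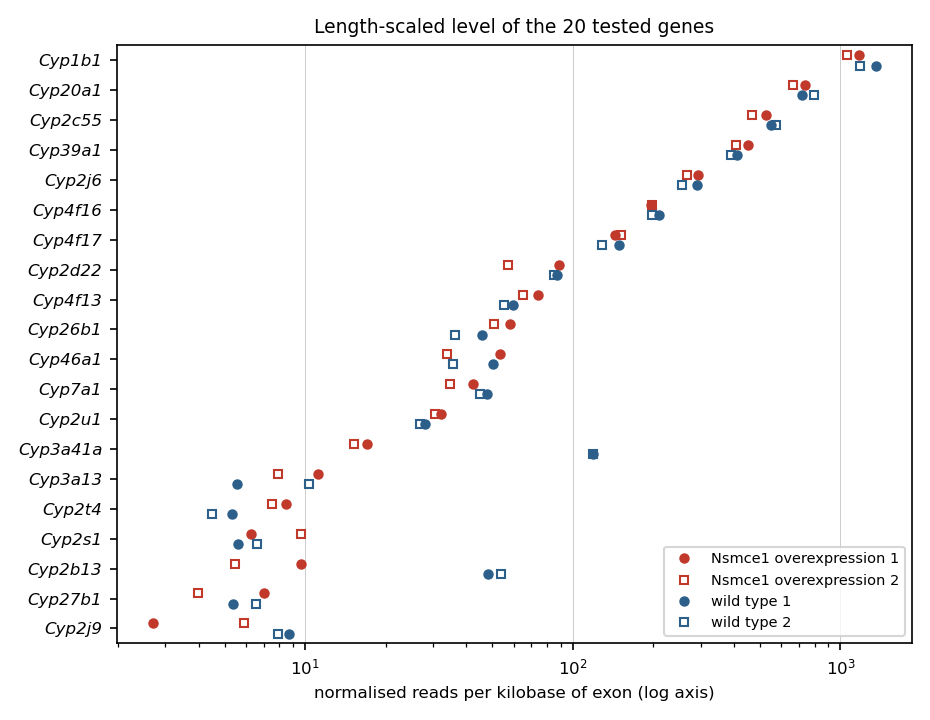
Length-scaled levels of the 20 tested P450 genes, in normalised reads per kilobase of exon on a log axis, ordered by the mean of the overexpressing libraries. Points are single libraries, overexpression above wild type in each row. Cyp1b1 leads at 1057 to 1356 per kilobase, and the wild type points of Cyp3a41a and Cyp2b13 stand to the right of their rows.

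Among the family 3 genes, which in mouse are mainly steroid and drug oxidases of liver and gut, Cyp3a41a (ENSMUSG00000075551, chromosome 5), a female-predominant enzyme of mouse liver, fell. It had 35.0 and 31.4 normalised reads in the overexpressing libraries, from 35 and 43 whole reads, and 244 and 245 in the wild type libraries, from 194 and 233 whole reads. Both overexpressing libraries were low and both wild type libraries were high. The groups were far apart relative to either pair's spread, but a spread from 2 libraries is poorly known and can fall below counting error. The mean was 33.2 ± 2.55 in overexpressing and 245 ± 1.01 in wild type cells (SD, n = 2 in each group), a log2 fold change of -2.85 (SE 0.208, 95% limits -3.35 to -2.34, limma adjusted p = 0.0105), or 7.19-fold lower. The call was lost without wild type replicate 1 (log2 fold change -2.85, limma adjusted p = 0.145) or wild type replicate 2 (-2.84, adjusted p = 0.150), while the difference itself hardly moved.

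The identity of the Cyp3a41a reads is uncertain. Of the 2011 different 50-base words in its GENCODE M21 transcripts, 1983, or 98.6%, also occur in transcripts of other genes, 93.7% of all words in Cyp3a41b and others in Cyp3a44, Cyp3a11, Cyp3a16 and the pseudogene Cyp3a63-ps. Only 28 words belong to Cyp3a41a alone. How reads with several matches were counted is not stated in the sources used here, so the value may stand for this group of near-identical genes. No row for Cyp3a41b, Cyp3a44, Cyp3a11 or Cyp3a16 was analysed here, and Cyp3a63-ps, the next row before it in gene order, had 0 normalised reads in both overexpressing libraries and 0 and 3.16 in the wild type libraries.

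The other family 3 genes were sparse. Cyp3a13, which like most of its family oxidises drugs and steroids, had 33.0 and 23.4 normalised reads in overexpressing and 16.3 and 30.5 in wild type libraries, so the groups overlapped (log2 fold change 0.30, 95% limits -0.79 to 1.39). Cyp3a57 had 0 and 7 whole reads in overexpressing and 0 and 3 in wild type libraries.

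Cyp2b13 (ENSMUSG00000040583, chromosome 7), also a female-predominant liver enzyme in mouse, had 18.0 and 10.2 normalised reads in overexpressing libraries and 90.5 and 101 in wild type libraries. Again both overexpressing libraries were low and both wild type libraries high, without overlap, from 18 and 14 whole reads in overexpressing and 72 and 96 in wild type libraries. The mean was 14.1 ± 5.50 in overexpressing and 95.8 ± 7.47 in wild type cells (SD, n = 2 in each group), with a log2 fold change of -2.73 (SE 0.368, 95% limits -3.62 to -1.83). The limma p was 0.000286 unadjusted and 0.0770 adjusted over all genes, so the difference did not pass, except with robust variances (limma adjusted p = 0.0285). Over the fits that left out a library its log2 fold change ranged from -3.11 to -2.35, with limma adjusted p between 0.0520 and 0.417. Less of its sequence is shared: 498 of 1826 words of 50 bases, or 27.3%, occur in other genes, with the most, 13.8%, in Gm45225, and further matches in Cyp2b9, Cyp2b10, Cyp2b19 and Cyp2b23.

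The nearest tested genes around these 2 differed less, but those around Cyp3a41a were far from it. Gm42636, 399 kb away, had a log2 fold change of 0.67 (95% limits -0.63 to 1.96). B230303O12Rik, 468 kb away on the other side, had 0.25 (95% limits -0.36 to 0.86). The genes of the table between these and Cyp3a41a had too few reads to be tested. Beside Cyp2b13, BC026762 had 25.0 and 20.4 normalised reads in overexpressing and 31.4 and 47.4 in wild type libraries (log2 fold change -0.75, 95% limits -1.65 to 0.15). The pseudogene Cyp2b27-ps starts before BC026762 and ends nearer to Cyp2b13, 32.6 kb from it against 49.1 kb for BC026762. Cyp2b27-ps had 3 and 1.46 normalised reads in overexpressing and 13.8 and 6.32 in wild type libraries, too few to be tested. Rnf170-ps, a pseudogene that overlaps Cyp2b13 on the same strand, had 21.0 and 26.3 in overexpressing and 11.3 and 14.7 in wild type libraries, the opposite direction (log2 fold change 0.81, 95% limits -0.22 to 1.85). None of these 4 tested neighbours passed (limma adjusted p between 0.681 and 0.834).

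**Figure D3:**
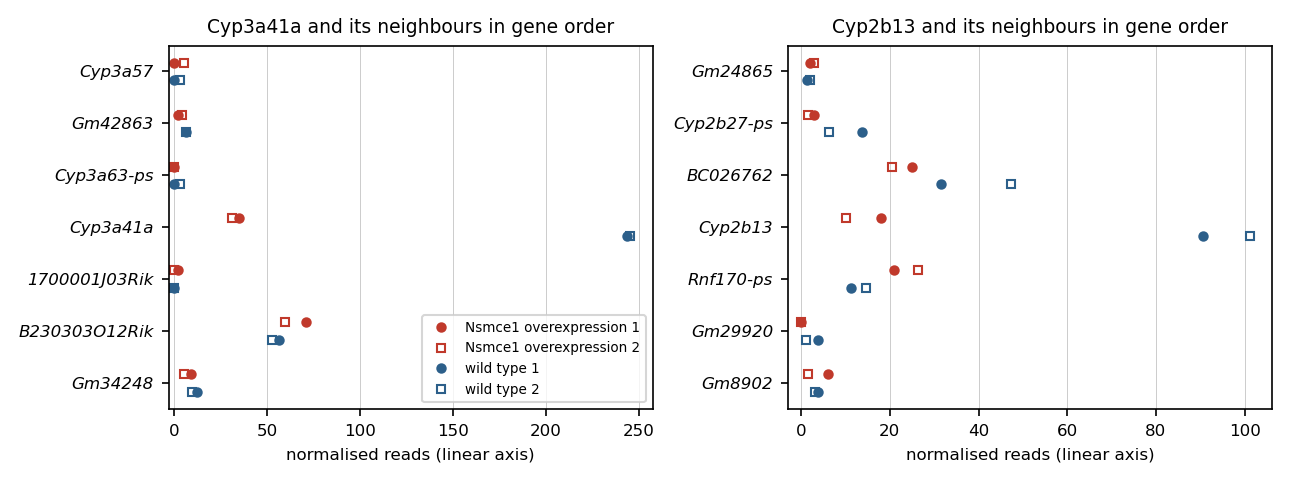
Normalised reads of Cyp3a41a (left) and Cyp2b13 (right) with the 3 genes of the table before and after each in chromosome order, on a linear axis. Points are single libraries, overexpression above wild type in each row. The wild type points of Cyp3a41a at 244 and 245 and of Cyp2b13 at 90.5 and 101 stand apart from all others.

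Of the remaining family 2 genes outside the Cyp2j and Cyp2u subfamilies, Cyp2c55, which in mouse hydroxylates arachidonic acid, was the most abundant. It had 1054 and 930 normalised reads in overexpressing and 1099 and 1144 in wild type libraries. Both overexpressing values lay below both wild type values, but the difference was small (log2 fold change -0.18, 95% limits -0.44 to 0.08, limma adjusted p = 0.723). Cyp2d22, of the drug-metabolising 2D subfamily, had 347 and 223 in overexpressing and 340 and 332 in wild type libraries, with overexpression replicate 2 alone low (log2 fold change -0.27, 95% limits -0.81 to 0.28). Its log2 fold change was 0.05 without that library.

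Cyp2s1, a P450 of epithelia outside the liver, had 31 and 47.4 normalised reads in overexpressing and 27.7 and 32.6 in wild type libraries, and the groups overlapped. Cyp2t4 had 14 and 12.4 in overexpressing and 8.80 and 7.37 in wild type libraries, and met the minimum only through the overexpressing group. Its log2 fold change was 0.65 with 95% limits of -0.59 to 1.88, and it overlaps Egln2 on the opposite strand, whose reads could be counted with it if strand was not used. Of the other tested genes, Cyp2c55, Cyp2s1 and Cyp2u1 also overlap genes on the opposite strand. Cyp39a1, Cyp3a13, Cyp20a1 and Cyp2b13 overlap genes on the same strand. Below the minimum were Cyp2c44, an epoxygenase, Cyp2f2, an enzyme of airway club cells, and Cyp2d26, with at most 11 whole reads each over all 4 libraries.

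Family 1 genes are the classic targets of the dioxin receptor. Cyp1b1 (ENSMUSG00000024087, chromosome 17), which oxidises oestradiol, retinoids and polycyclic hydrocarbons, had 6864 and 6176 normalised reads in overexpressing and 7921 and 6938 in wild type libraries. The groups did not overlap, but overexpression replicate 1 and wild type replicate 2 were nearly equal. Its log2 fold change was -0.19 (SE 0.0981, 95% limits -0.43 to 0.05, limma adjusted p = 0.703). Cyp1a1, the other family 1 gene in the table, had 0 and 3 whole reads in overexpressing and 0 in both wild type libraries.

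The Cyp4f, Cyp2j and Cyp2u1 genes, whose enzymes hydroxylate or epoxidise fatty acids, numbered 9 and were grouped by symbol, so that Cyp2c55 and Cyp2c44 are not counted with them. Of the 9, 6 were tested, 4 above and 2 below 0, beside 51.3% above 0 over all genes tested. Of these 6, 0 were called, beside 0.193% of all genes tested. Cyp2j6, an epoxygenase of polyunsaturated fatty acids, had 1055 and 961 normalised reads in overexpressing and 1051 and 926 in wild type libraries. The groups overlapped nearly completely, with a log2 fold change of 0.03 and 95% limits of -0.25 to 0.30. Its relative Cyp2j9, an arachidonic acid hydroxylase found in mouse brain, was scarce, with 9 and 19.7 in overexpressing and 28.9 and 26.3 in wild type libraries. Overexpression replicate 1 was the lowest, and the log2 fold change of -0.99 had 95% limits of -2.18 to 0.20 (limma adjusted p = 0.680). The value was -0.47 without overexpression replicate 1 (limma adjusted p = 0.905) and -1.52 without overexpression replicate 2 (limma adjusted p = 0.518).

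The Cyp4f genes encode hydroxylases of leukotrienes and long-chain fatty acids, and 5 of the 6 in the table lie on chromosome 17. Cyp4f16 had 601 and 607 normalised reads in overexpressing and 644 and 609 in wild type libraries, with a log2 fold change of -0.05 and 95% limits of -0.31 to 0.21. Cyp4f17 had 461 and 485 in overexpressing and 477 and 411 in wild type libraries (log2 fold change 0.10, 95% limits -0.22 to 0.42). Cyp4f13 had 328 and 289 in overexpressing and 264 and 245 in wild type libraries. For Cyp4f13 both overexpressing values were above both wild type values, and the difference did not pass (log2 fold change 0.27, 95% limits -0.08 to 0.63, limma adjusted p = 0.711).

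Cyp4f14, a leukotriene hydroxylase gene of the same chromosome, had 10 and 23 whole reads in the overexpressing libraries and 0 in both wild type libraries, or 10 and 16.8 normalised reads against 0. It was the only P450 gene with at least 10 reads in a library of 1 group and none in the other group. The share of all genes of the table with this pattern was not counted, so how unusual it is cannot be said. Measured against a floor of 3 reads over both wild type libraries it was 8.10-fold higher. The floor covers counting error in the wild type libraries only, so this ratio is not a lower limit. With a mean under 10 normalised reads it was not tested. Cyp4f37, which shares 18.9% of its words with Cyp4f16, and Cyp4f18, a neutrophil leukotriene hydroxylase in mouse, had 6 and 3 whole reads, all in wild type replicate 2. Cyp2u1, a hydroxylase of long-chain fatty acids in brain, had 168 and 160 normalised reads in overexpressing and 147 and 140 in wild type libraries, a log2 fold change of 0.19 with 95% limits of -0.22 to 0.60.

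All 3 genes of cholesterol and bile acid turnover were tested, and 0 passed, beside 0.193% of all genes tested. Cyp46a1, the neuronal enzyme that turns cholesterol into its main brain oxysterol, had 176 and 111 normalised reads in overexpressing and 165 and 117 in wild type libraries. Within each group 1 library was well above the other, and the group means were almost equal (log2 fold change 0.01, 95% limits -0.70 to 0.72). Cyp39a1, which hydroxylates that oxysterol further, had 1382 and 1244 in overexpressing and 1249 and 1191 in wild type libraries (log2 fold change 0.10, 95% limits -0.14 to 0.35). Cyp7a1, the rate-limiting enzyme of bile acid synthesis in liver, had 176 and 145 in overexpressing and 200 and 187 in wild type libraries. Its groups did not overlap, with overexpression replicate 2 the lowest, and the difference did not pass (log2 fold change -0.28, 95% limits -0.71 to 0.16, limma adjusted p = 0.742).

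Cyp26b1 (chromosome 6), which clears retinoic acid, had 311 and 271 normalised reads in overexpressing and 244 and 195 in wild type libraries. Both overexpressing libraries were above both wild type libraries, with a mean of 291 ± 28.4 in overexpressing and 219 ± 34.7 in wild type cells (SD, n = 2 in each group). The log2 fold change was 0.41 (95% limits -0.02 to 0.84, limma adjusted p = 0.643). Over the fits that left out a library it ranged from 0.25 without wild type replicate 2 to 0.57 without wild type replicate 1. Its paralogue Cyp26a1 had 2 and 0 whole reads in overexpressing and 0 and 3 in wild type libraries.

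For vitamin D, Cyp27b1, the mitochondrial enzyme that makes the active hormone, had 18.0 and 10.2 normalised reads in overexpressing and 13.8 and 16.9 in wild type libraries, overlapping groups with a log2 fold change of -0.16 (95% limits -1.36 to 1.04). Cyp24a1, which inactivates the hormone, had 0 and 3 whole reads in overexpressing and 0 in both wild type libraries. Steroid hormone synthesis was represented by Cyp17a1, a steroid hydroxylase and lyase, with 0 and 1 whole reads in overexpressing and 0 and 4 in wild type libraries. Cyp20a1, a P450 without an established substrate, had 1688 and 1513 normalised reads in overexpressing and 1647 and 1817 in wild type libraries (log2 fold change -0.11, 95% limits -0.36 to 0.14).

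Precision followed abundance. The 14 tested genes with a mean of at least 100 normalised reads had standard errors between 0.0981 and 0.292 on the log2 scale, and the 6 scarcer ones between 0.354 and 0.507. For 13 of the 20 both 95% limits lay within 2-fold of wild type, and for 7 within 1.5-fold. The groups did not overlap for 11 of the 20, 7 lower and 4 higher, beside 39.1% of all genes tested, 18.3% lower and 20.8% higher. Before adjustment, 2 of the 20, Cyp3a41a and Cyp2b13, had a limma p under 0.05, beside 7.92% of all genes tested. A log2 fold change of -1 or below was found for the same 2 genes, beside 1.71% of all genes tested.

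**Figure D4:**
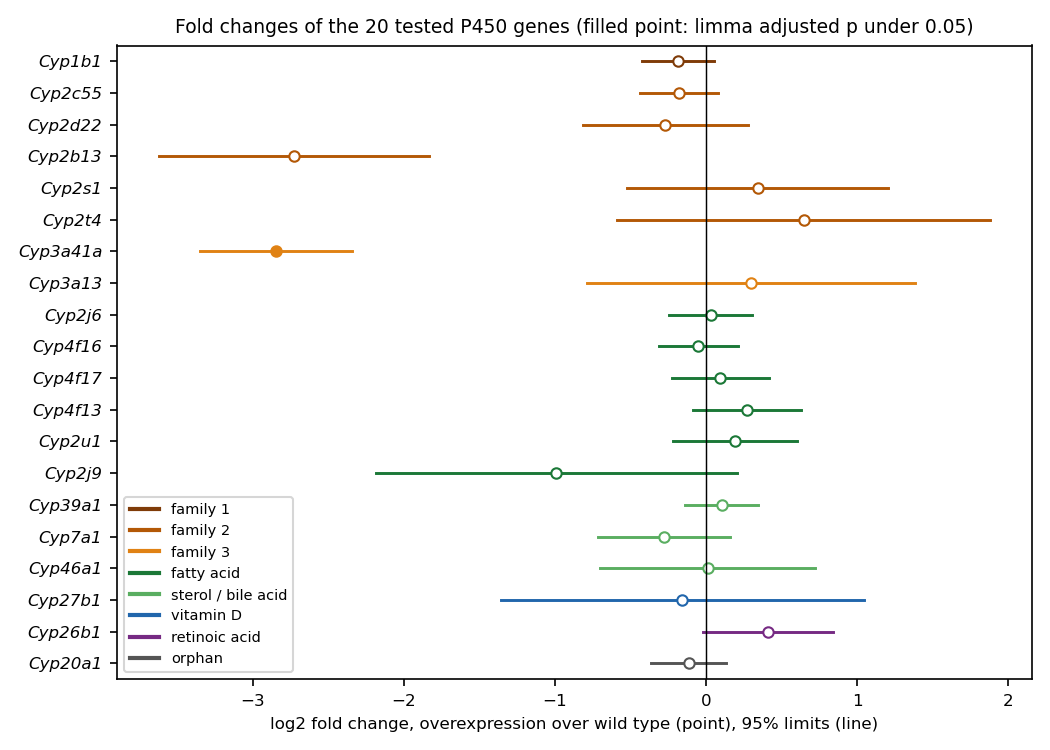
Log2 fold changes of the 20 tested P450 genes, overexpression over wild type, with 95% limits from limma. Genes are grouped and coloured by role, and a filled point marks an adjusted p under 0.05. Cyp3a41a at -2.85 and Cyp2b13 at -2.73 lie far left of 0, and the limits of the other 18 genes include 0.

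The enzymes and factors that P450s work with were compared from 4 lists, 56 genes in all, of which 39 were tested. Of these, 23 lay above and 16 below 0, beside 51.3% above 0 over all genes tested. None of the 39 passed (limma adjusted p under 0.05), beside 0.193% of all genes tested, and 3 had an unadjusted limma p under 0.05, beside 7.92%. In the list of electron donors and binding partners, 11 genes were tested, 6 above and 5 below 0, with a median log2 fold change of 0.004. Por, the P450 oxidoreductase of the endoplasmic reticulum, had 5995 and 5336 normalised reads in overexpressing and 6012 and 5477 in wild type libraries, a log2 fold change of -0.02 with 95% limits of -0.25 to 0.21. The mitochondrial pair differed little more. Fdx1, a ferredoxin, had a log2 fold change of 0.25 (95% limits -0.11 to 0.61), and Fdxr, its reductase, 0.10 (95% limits -0.18 to 0.38). Pgrmc2, a haem-binding membrane protein, stood at 0.11 (95% limits -0.09 to 0.32).

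Haem synthesis and breakdown had 9 of 12 tested genes above 0, with a median log2 fold change of 0.11. Cpox, coproporphyrinogen oxidase of haem synthesis, had 7039 and 7077 normalised reads in overexpressing and 5193 and 5436 in wild type libraries. The groups were well apart, with a log2 fold change of 0.41 (95% limits 0.23 to 0.58) and a limma adjusted p of 0.165. Cpox and Hmox2, a haem oxygenase with a log2 fold change of 0.17 (95% limits -0.04 to 0.39), both lie on chromosome 16, whose genes had a median of 0.17. With the median of each chromosome removed Cpox stood at 0.24 and Hmox2 at 0.004.

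Regulators of P450 transcription had 7 of 12 tested genes above 0, with a median of 0.05. Arnt, the partner of the dioxin receptor, had 5350 and 4662 normalised reads in overexpressing and 4077 and 4287 in wild type libraries (log2 fold change 0.26, 95% limits 0.03 to 0.48, limma adjusted p = 0.563). The receptor gene Ahr stood at -0.02 (95% limits -0.35 to 0.30), and Tiparp, a target of the receptor that restrains it, at 0.13 (95% limits -0.07 to 0.33). Nr1i3, which encodes the liver receptor for phenobarbital-like inducers known as CAR, was below the minimum, with 6 and 8.03 normalised reads in overexpressing and 8.80 and 8.43 in wild type libraries. The related pregnane receptor gene Nr1i2 was not among the genes analysed.

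In the list of epoxide hydrolases and P450-like enzymes with other symbols, 1 of 4 tested genes lay above 0. Ptgis, prostacyclin synthase, a P450 protein by sequence, had 423 and 453 normalised reads in overexpressing and 717 and 633 in wild type libraries. The groups were well apart, with a log2 fold change of -0.62 (95% limits -0.92 to -0.32), a limma p of 0.00224 unadjusted and an adjusted p of 0.222. Cyp51 had 10611 and 7904 in overexpressing and 11090 and 11605 in wild type libraries (log2 fold change -0.31, 95% limits -0.65 to 0.03), with overexpression replicate 2 the lowest. Its log2 fold change was -0.10 without that library (limma adjusted p = 0.821) and -0.52 without overexpression replicate 1 (limma adjusted p = 0.144).

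**Figure D5:**
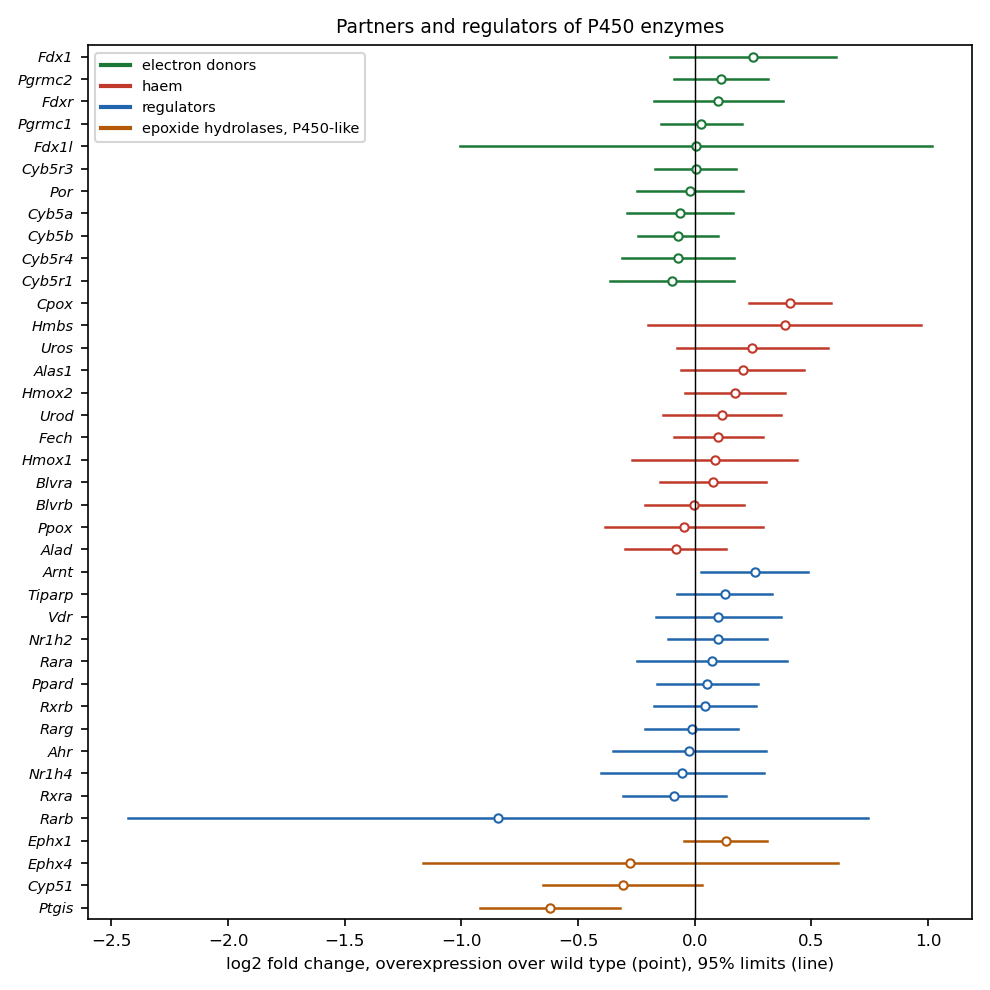
Log2 fold changes of the 39 tested partner and regulator genes, overexpression over wild type, with 95% limits from limma, coloured by list. Most points lie near 0, and the limits of Cpox (0.23 to 0.58), Arnt (0.03 to 0.48) and Ptgis (-0.92 to -0.32) leave out 0 before any adjustment.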

How the data were processed

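RNA from HT-22 cells was sequenced in 2 overexpressing and 2 wild type libraries, from Trizol extracts and TruSeq libraries with BGISEQ-500 protocols per the labels. HISAT, Cufflinks and mm9 are named in the submitters' processing notes. Counting rules, strand and the handling of multiple matches are not stated there. The authors deposited log2 values of a normalised read count plus 1. After the log2 was undone, 100% of values were whole multiples of 1 step per library (tolerance 0.001 read), worth 1.00 and 0.730 normalised reads in the overexpressing and 1.26 and 1.05 in the wild type libraries.

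The design had allowed for raw counts or normalised values, and the branch for normalised values was used. limma 3.58.1 in R 4.3.3, with a mean-variance trend and group as the only term, was fitted to the deposited log2 values of the 15540 genes whose mean reached 10 normalised reads, and p-values are two-sided and Benjamini-Hochberg adjusted over them. The pseudocount of 1 makes fold changes on this log2(value + 1) scale too small for low genes. An exact permutation test of 2 libraries against 2 cannot go below 0.333 (two-sided), so calls rest on limma's pooled variance (6.10 degrees of freedom). The steps were tested on simulated data with changes placed only in genes averaging at least 100 normalised reads, which does not bear on scarcer genes. Whether a group's libraries came from separate cultures is not stated, and the p-values cover the spread between these libraries alone, which may be technical. Exon lengths, gene order and shared 50-base words came from GENCODE M21 (GRCm38), matched by identifier for all 31 genes. The notes name another build, so gene order, distances and overlaps are those of GRCm38 and no coordinates of genes are printed from it.

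Members, lists and tests were chosen with earlier results of these data known. All tested members were named. Values of all 4 libraries were given for called members, the 10 most abundant, the 5 with the smallest p, and any with at least 10 reads in a library and none in the other group, and for further members where useful. Of partner lists, the called genes, the 2 with the smallest p and Por, Fdx1 and Fdxr were named, and Ahr, Nr1i3 and the genes beside Cyp3a41a and Cyp2b13 were added after their values were seen. Alternatives were other pseudocounts, filters, normalizations and limma variants, voom on the recovered reads, the replicate block, chromosome medians removed, and each library left out.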

Additional observations from a re-analysis of the deposited data

How the results depend on the processing

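Cyp3a41a was lower in overexpressing cells in all 15 alternatives (log2 fold change -2.92 to -2.71) and passed in all except those without a wild type library. P450 genes called numbered 1 throughout, except 2 with robust variances and 0 to 1 with a library left out. Partner and regulator genes called stayed at 0 in every alternative. Over the whole table the calls numbered 16 without a filter, 18 with quantile normalization, 9 without a trend, 72 with robust variances and 2 to 75 with a library left out, against 30. The replicate number as a block gave 60 calls and left Cyp3a41a as the only P450 gene called. The deviations of same-numbered libraries had a correlation of 0.006, and nothing in the labels pairs them. With voom on the recovered reads 21 genes were called. At least 1 read in either group was found for 31 P450 genes, and at least 10 reads for 21, against 20 tested. The cause of these shifts was not tested.

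Of the 20 tested P450 genes, 14 kept their sign in every alternative run for them and 6 did not. Cyp46a1 stood at -0.0017 with quantile normalization, -0.022 with voom and -0.024 with chromosome medians removed. With a library left out, log2 fold changes ranged from -0.32 to 0.34 for Cyp46a1, -0.59 to 0.048 for Cyp2d22, -0.012 to 0.20 for Cyp4f17, -0.13 to 0.73 for Cyp3a13, -0.54 to 0.22 for Cyp27b1, -0.062 to 0.12 for Cyp2j6 and -0.10 to 0.063 for Por. Standard errors were larger for the 6 tested genes with a mean under 100 normalised reads (0.354 to 0.507) than for the other 14 (0.0981 to 0.292).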
